A study of Mus musculus with 10 samples.

Results

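The 7 cyclin-dependent kinase inhibitor genes of the mouse, Cdkn1a, Cdkn1b, Cdkn1c, Cdkn2a, Cdkn2b, Cdkn2c and Cdkn2d, were examined for H3K27me3, a trimethyl mark on histone H3, among 37310 annotated genes. The members were chosen by symbol in the GENCODE annotation of mm9, and each symbol matched 1 gene. All cells came from a B-cell lymphoma line of a C57BL/6J mouse that carried the Eμ-Myc transgene, which expresses Myc in the B lineage from an immunoglobulin heavy chain enhancer, and lacked Cdkn2a (Cdkn2a-/-). The parental line was compared with the lines R100, R500, R1000 and R4000, which were isolated from it as sub-clones during dose escalation of the alkylating agent mafosfamide at 100, 500, 1000 and 4000 nM and which share this genotype. All lines were grown without the drug for ChIP-seq. Each line was 1 peak list without heights, counts or p-values. The depth behind the lists is unknown. The study describes replicate ChIP-seq experiments, but the lists analysed here give 1 set of peaks per line, so that the spread between replicates could not be computed and no difference between lines was tested. The measure used was covered length, the number of base pairs under distinct peaks from 5 kb upstream of the 5′ end of a gene to its other end. A gene was counted as covered with at least 150 bp, 3 of the 50-bp bins on which peaks lie.

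Cyclin-dependent kinases drive cells through the division cycle once a cyclin is bound, and the inhibitors hold them back. The Cip/Kip proteins p21 (Cdkn1a), p27 (Cdkn1b) and p57 (Cdkn1c) bind cyclin and kinase together. The INK4 proteins p16 (Cdkn2a), p15 (Cdkn2b), p18 (Cdkn2c) and p19 (Cdkn2d) bind Cdk4 and Cdk6 and keep cyclin D away from them. Cdkn2a also encodes Arf, a protein that stabilises p53 by restraining Mdm2, from another promoter and reading frame. H3K27me3 is laid down by polycomb repressive complex 2 and marks silenced genes. The Cdkn2a and Cdkn2b locus is a textbook polycomb target in normal cells, Cdkn1a is a textbook target of p53 after DNA damage, and Cdkn1c is imprinted and expressed mainly from the maternal allele.

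Peaks lay at the 3 Cip/Kip genes and at none of the 4 INK4 genes. The stretches that carry this contrast are shown from the mm9 reference, 5′ to 3′ on the strand of the gene, with CpG dinucleotides in capitals. The first is the middle 300 bp of the only stretch of any inhibitor gene that was covered in all 5 lines, in an intron of Cdkn1a at chr17:29231226-29231525 (plus strand), with 22 CpG dinucleotides.
Cdkn1a intron: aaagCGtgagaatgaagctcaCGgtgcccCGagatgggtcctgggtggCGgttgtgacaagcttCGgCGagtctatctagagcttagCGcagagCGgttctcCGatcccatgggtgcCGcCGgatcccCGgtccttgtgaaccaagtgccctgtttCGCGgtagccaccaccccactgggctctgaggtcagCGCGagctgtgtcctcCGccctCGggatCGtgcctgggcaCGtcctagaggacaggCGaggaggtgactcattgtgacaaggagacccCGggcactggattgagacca
The next are the peak of R100 and R500 within the coding part of the first exon of Cdkn1b, at chr6:134871101-134871300 (plus strand), and the R100 peak upstream of that gene, at chr6:134870051-134870150. Each holds 12 CpG dinucleotides.
Cdkn1b exon: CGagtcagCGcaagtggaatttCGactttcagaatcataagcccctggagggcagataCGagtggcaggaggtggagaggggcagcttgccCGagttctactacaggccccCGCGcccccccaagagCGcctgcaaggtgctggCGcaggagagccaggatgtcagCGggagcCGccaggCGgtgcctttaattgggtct
Cdkn1b upstream: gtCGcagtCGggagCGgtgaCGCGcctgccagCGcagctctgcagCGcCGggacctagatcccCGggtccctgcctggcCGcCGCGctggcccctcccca
The R100 peak upstream of Cdkn1c that holds the whole parental peak, at chr7:150650251-150650450 (minus strand), has 1 CpG dinucleotide.
Cdkn1c upstream: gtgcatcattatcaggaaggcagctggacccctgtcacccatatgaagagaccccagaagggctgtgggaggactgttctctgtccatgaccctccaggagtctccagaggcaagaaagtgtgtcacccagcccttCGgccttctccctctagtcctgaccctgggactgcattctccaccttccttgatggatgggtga
For contrast, the 250 bp before the starts of Cdkn2b, at chr4:88956942-88957191, and Cdkn2d, at chr9:21095654-21095903, both on the minus strand, hold 12 and 16 CpG dinucleotides and had no peak in any list.
Cdkn2b promoter: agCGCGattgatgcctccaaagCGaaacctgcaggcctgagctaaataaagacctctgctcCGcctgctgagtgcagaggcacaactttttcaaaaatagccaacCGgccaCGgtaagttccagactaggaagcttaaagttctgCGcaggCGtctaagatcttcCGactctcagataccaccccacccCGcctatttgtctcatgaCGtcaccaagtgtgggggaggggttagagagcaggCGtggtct
Cdkn2d promoter: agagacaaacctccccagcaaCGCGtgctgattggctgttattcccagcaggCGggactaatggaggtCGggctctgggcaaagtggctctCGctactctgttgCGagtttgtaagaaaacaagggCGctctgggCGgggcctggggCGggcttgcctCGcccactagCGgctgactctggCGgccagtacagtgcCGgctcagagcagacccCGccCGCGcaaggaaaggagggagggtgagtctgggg

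The lists differed in size, which bears on every value that follows. The parental list covered 1.63 Mb, R100 5.04 Mb, R500 4.53 Mb, R1000 1.61 Mb and R4000 1.07 Mb. In R100 and R500 alone every peak was entered 2 times, for a reason not given in the sources used here (50360 entries for 25180 distinct peaks and 43776 for 21888). The covered length of 9 B-cell marker genes summed to 0 bp for the parental line and 2150 bp for R100. It was 650 bp for R500, 200 bp for R1000 and 150 bp for R4000. The sum was highest in the same lines as that of the inhibitor genes, but the markers did not move together. In R100, Cd79b (1000 bp) and Ebf1 (900 and 50 bp, annotated 2 times) held most of it. Cd79a, Cd22, Igll1, Ms4a1 and Blnk had 0 bp there. Pax5 had 50 bp in R100, R1000 and R4000 and 0 bp in R500. The covered length of 5 T-cell marker genes summed to 0 to 700 bp per line and that of 5 myeloid marker genes to 0 to 100 bp. Peak lists do not measure expression, so the cell type itself was not checked. How far these differences between lists bear on the inhibitor genes was not tested.

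Cdkn1a was the 1 inhibitor gene covered in the parental line, R1000 and R4000, and R100 and R500 covered 3 each (Cdkn1a, Cdkn1b and Cdkn1c). The share of all annotated genes covered was 5.82% for the parental line, 15.8% for R100, 12.7% for R500, 6.63% for R1000 and 5.39% for R4000. Among protein-coding genes, to which the inhibitor genes belong, it was 7.67%, 21.7%, 17.0%, 8.86% and 7.05% in the same order of lines. With 7 genes, 1 gene is 14.3% of the list, so the share can move only in steps of that size. The median covered length was 0 bp over the 7 genes and over all genes in every line. The summed covered length of the 7 genes was 550 bp for the parental line, 2550 bp for R100, 2000 bp for R500, 900 bp for R1000 and 1100 bp for R4000. Cdkn1a supplied most of that sum in every line, and all of it in R4000.

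**Figure D1:**
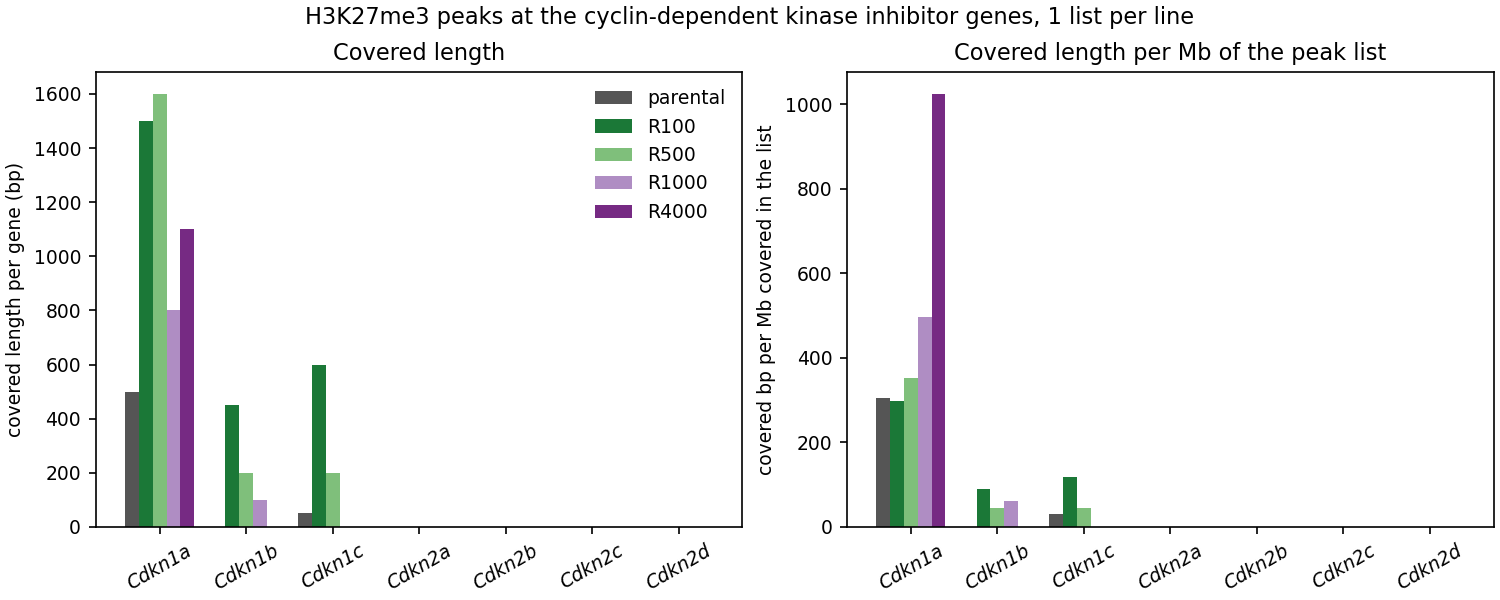
Covered length of each inhibitor gene in the 5 lines, 1 bar per line, in bp (left) and in bp per Mb covered by the whole list (right). Cdkn1a has a bar in every line, the 4 Cdkn2 genes have none, and R4000 is the tallest Cdkn1a bar only on the right. On the left, Cdkn1b and Cdkn1c have bars mainly in R100 and R500. On the right, the Cdkn1b bar of R1000 is taller than that of R500.

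Cdkn1a (ENSMUSG00000023067.7), on chromosome 17 from 29227924 to 29237667 on the plus strand, was the 1 inhibitor gene covered in all lines. Its covered length was 500 bp for the parental line, 1500 bp for R100, 1600 bp for R500, 800 bp for R1000 and 1100 bp for R4000. Every resistant line thus covered more of the gene than the parental line did, with R100 and R500 the highest and R1000 the nearest to it. Of all annotated genes, 3.37% had at least 150 bp covered in each of the 5 lines. Per length, the covered share of the 14.7-kb window was 3.39% for the parental line, 10.2% for R100, 10.9% for R500, 5.43% for R1000 and 7.46% for R4000. Over the windows of all genes the same share was between 0.102% (R4000) and 0.431% (R100). That pooled share includes the 68.4% of genes without a covered base in any list. It is thus no like comparison for a gene that is covered.

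A gene was called higher in a line with at least 150 bp and at least 2 times the parental length, and lower in the converse case. In R100, 3 inhibitor genes (Cdkn1a, Cdkn1b and Cdkn1c) were higher than in the parental line, against 13.9% of all genes, and in R500 the same 3 genes were higher, against 10.6%. In R1000 none was higher, where 2.90% of all genes were. In R4000 Cdkn1a alone was higher, against 2.06%. None was lower in any of the 4 lines, where 0.461% (R100), 0.466% (R500), 1.78% (R1000) and 3.0% (R4000) of all genes were. Genes under 150 bp in the parental line could not be called lower, so that of the 7 inhibitor genes only Cdkn1a could be. All genes here include noncoding genes and pseudogenes, and the shares of protein-coding genes called higher or lower were not computed.

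Among the 2170 genes covered in the parental line, 61.0% were higher in R100 and 59.0% in R500, so Cdkn1a, with 3.0 and 3.2 times its parental length there, did as most of these genes did. Lower were 7.93% in R100 and 8.02% in R500. In R4000 51.6% of those genes were lower and 6.59% (143 genes) were higher, and Cdkn1a, with 2.2 times its parental length, was among the latter. R1000 had 1.6 times the parental length at Cdkn1a, under the limit of 2, while 13.9% of the parental genes were higher and 30.6% lower. Dividing by the covered length of each list gave 306 bp of Cdkn1a per Mb for the parental line, 298 for R100, 353 for R500, 496 for R1000 and 1025 for R4000. On this scale Cdkn1a was no longer higher in R100 and R500, where 10% and 7.02% of all genes were, but was higher in R4000, as were 2.63% of all genes. Cdkn1b was higher in both R100 and R500, but with 0 bp in the parental line it could not lose these calls by scaling. Cdkn1c stayed higher in R100 alone. No inhibitor gene was lower on this scale, where 1.63% (R100), 1.42% (R500), 1.66% (R1000) and 2.16% (R4000) of all genes were, and none was higher in R1000, against 2.90%. Each value is from a single list.

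The lists differ in length, so the place of Cdkn1a within each list is given as a description of that list. The share of protein-coding genes covered over at least as many bp was 3.57% for the parental line, 3.77% for R100, 3.20% for R500, 2.32% for R1000 and 0.840% for R4000. The single R4000 peak was 1100 bp wide, and 57 of the 6820 R4000 peaks were at least as wide. The widest Cdkn1a peak was 500 bp for the parental line, 1400 bp for R100, 1250 bp for R500 and 600 bp in R1000.

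Cdkn1a has several annotated starts, and the peaks gathered at one of them. Transcript Cdkn1a-003 begins at the 5′ end of the gene, and Cdkn1a-001 begins 2793 bp further downstream. The parental peak ran from 384 to 883 bp downstream of the start of Cdkn1a-001, within its first intron. The main R100 peak ran from -16 to 1383 bp relative to that start, the R500 peak from 84 to 1333 bp downstream and the R4000 peak from 234 to 1333 bp downstream. R1000 had a peak from 434 to 1033 and another from 1184 to 1333 bp downstream. R100, R500 and R1000 each had 1 more peak upstream of this start, of 100, 350 and 50 bp, with no base common to any pair of them. No line had a peak in the 5 kb before the 5′ end of the gene or in the coding exons.

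**Figure D2:**
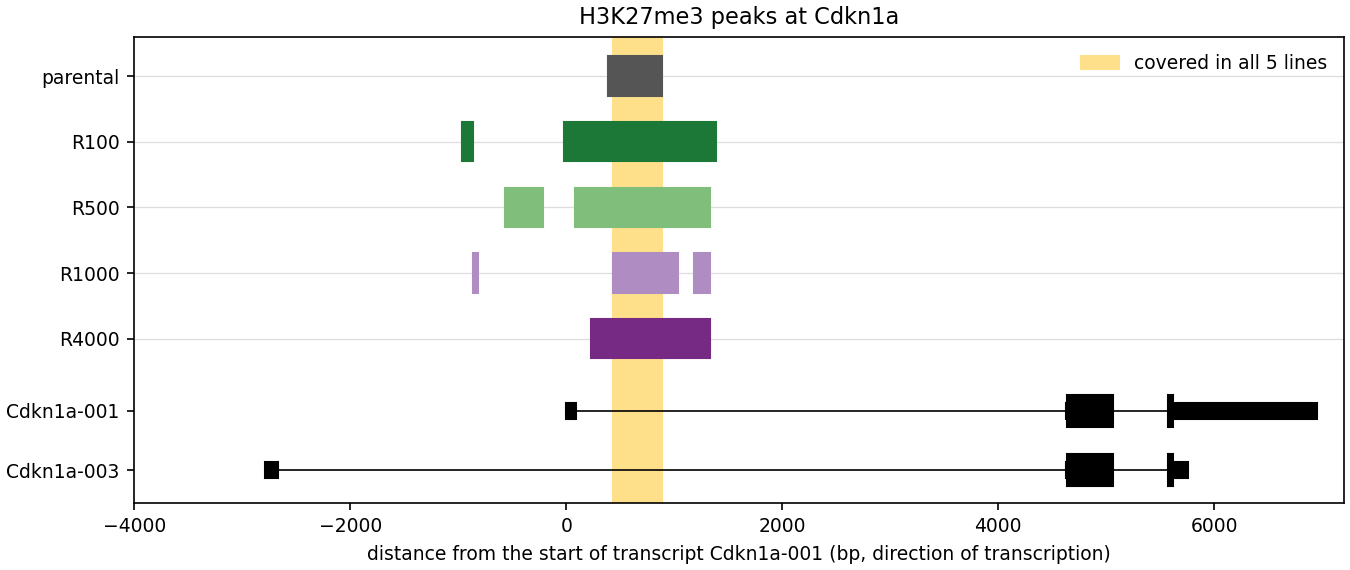
H3K27me3 peaks at Cdkn1a in each line against distance in bp from the start of transcript Cdkn1a-001, with 2 transcripts below (thin boxes untranslated, thick boxes coding). All lines share the shaded stretch from 434 to 883 bp, and R100, R500 and R4000 extend from it on both sides.

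The bases covered in all 5 lines formed 1 stretch of 450 bp, chr17:29231151-29231600, from which the intron sequence above was taken. The R100, R500 and R4000 lists held the whole parental peak, and R1000 held 450 of its 500 bp. Within 1 kb on both sides of the start of Cdkn1a-001 there were 107 CpG dinucleotides, at 0.66 of the number expected from base composition, against 17 and 0.15 at Cdkn1a-003. The median of protein-coding genes at their 5′ ends was 60 and 0.47. The start of Cdkn1a-002, 7228 bp downstream of the 5′ end, had 59 and 0.37. The peaks therefore sat at the most CpG-rich of the annotated starts of Cdkn1a. Of E-box motifs searched on both strands in the 450 bp, CACCTG, a form bound by E2a proteins, occurred 1 time, and 33.9% of windows of 450 bp downstream of the 5′ ends of protein-coding genes hold it. CAGCTG and CACGTG did not occur, and 24.7% and 6.90% of those windows hold them. GAGAG, searched likewise, did not occur, and 76.3% of the windows hold it.

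A p53 response element, searched as a decamer pair without a spacer and with 1 mismatch allowed, was found 1 time in the Cdkn1a window, at chr17:29227873-29227892. It begins at position -51 relative to the 5′ end of the gene, which is the start of Cdkn1a-003. Relative to the start of Cdkn1a-001, where the peaks gathered, it begins at -2844.
p53 element: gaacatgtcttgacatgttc
Such a match lies in 4.65% of windows of the same length at protein-coding genes. No list covered it, and the nearest peak was 3209 bp away for the parental line, 1859 bp for R100, 2259 bp for R500, 1959 bp for R1000 and 3059 bp for R4000. The match is a description of the sequence, and binding of p53 was not measured.

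Cdkn1b (ENSMUSG00000003031.8), on chromosome 6 from 134870419 to 134875531 on the plus strand, had a covered length of 0 bp for the parental line, 450 bp for R100, 200 bp for R500, 100 bp for R1000 and 0 bp for R4000. Only R100 and R500 passed 150 bp, as did 3.24% of all genes with these 2 lines covered and the other 3 not. R100 had 3 peaks, 1 of them upstream from -368 to -269 bp relative to the start and the others from 382 to 531 and from 682 to 881 bp after it. The last of these was identical in R500, and the R1000 peak was its final 100 bp. All of the R500 and R1000 coverage fell in the coding part of exon 1, the Cdkn1b exon sequence above. The parental line had no peak within 107.4 kb of the window, and in R4000 the nearest was 17.2 kb away.

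Cdkn1c (ENSMUSG00000037664.6), on chromosome 7 from 150644255 to 150646955 on the minus strand, had a covered length of 50 bp for the parental line, 600 bp for R100, 200 bp for R500 and 0 bp for R1000 and R4000. As at Cdkn1b, R100 was the highest and R500 next, and again only these passed 150 bp. The R500 call rests on 1 peak of 100 bp and 2 of 50 bp. It was lost in every other gene window tried, with peaks of at least 100 bp, with the widest peaks, with a minimum of 300 bp and after scaling by the list. The positions did not repeat as they did at Cdkn1b. The 5 R100 peaks and 3 R500 peaks, 50 to 200 bp wide, shared 0 bases, although the R500 peak from 305 to 404 bp after the start adjoined the R100 peak from 255 to 304 bp. Of the R100 coverage 450 bp lay upstream of the start, 100 bp in a coding exon and 50 bp in an intron. The parental peak of 50 bp lay from -3445 to -3396 bp relative to the start, inside the R100 peak shown above.
The surroundings of Cdkn1c carried peaks too. Within 50 kb of its start, the covered length was 50 bp for the parental line, 1750 bp for R100, 900 bp for R500, 400 bp for R1000 and 50 bp for R4000. The largest part lay at Phlda2, another imprinted gene of the same domain, with 0, 950, 500, 400 and 50 bp in that order of lines. R1000 thus had peaks at the neighbour and none in the Cdkn1c window.

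**Figure D3:**
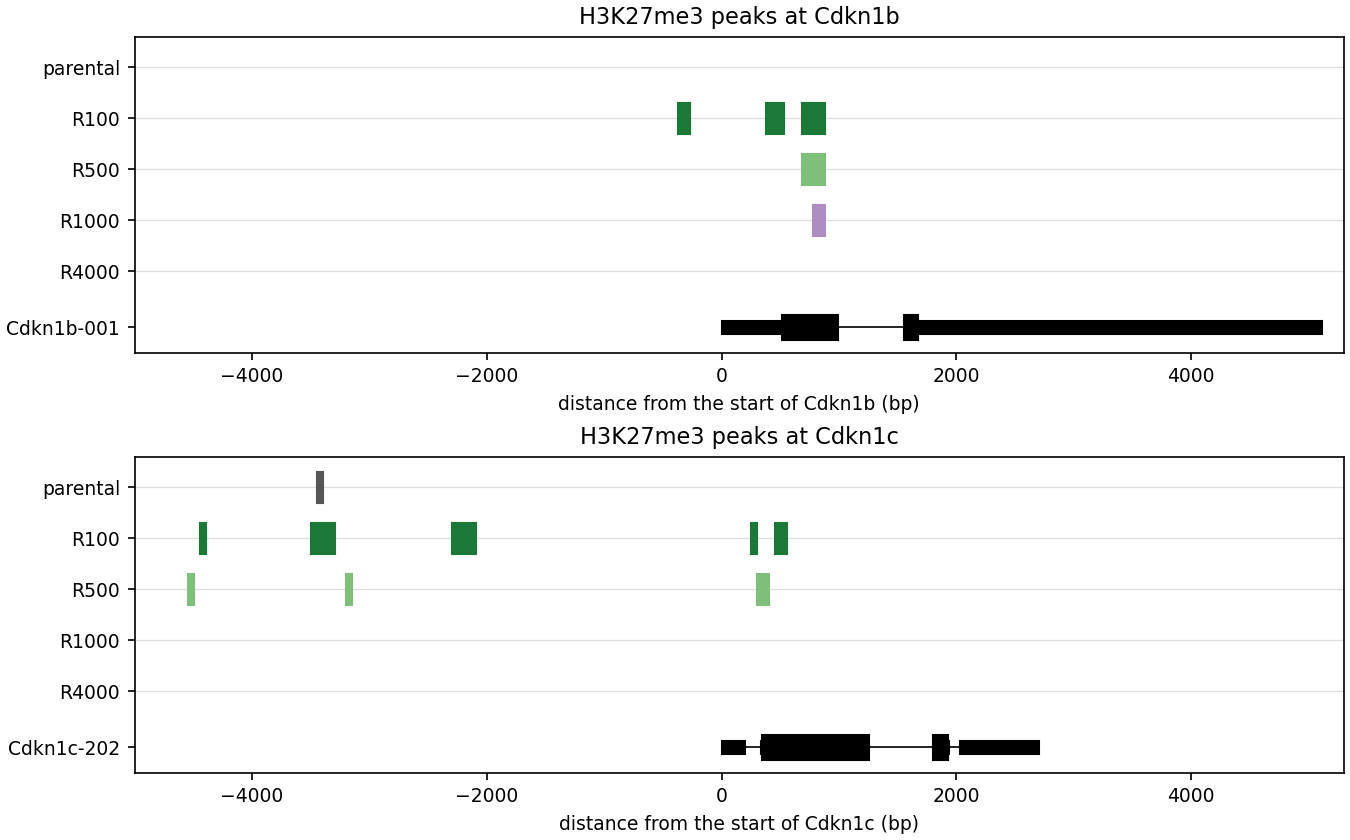
H3K27me3 peaks at Cdkn1b (top) and Cdkn1c (bottom) in each line against distance in bp from the gene start in the direction of transcription, with 1 transcript below each. The Cdkn1b peaks from 682 to 881 bp align between R100 and R500, whereas those of Cdkn1c do not overlap between these lines.

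From one line to the next, Cdkn1b and Cdkn1c were lower in R500 than in R100 by the same limit of 2 times, as were 6.15% of all genes, and Cdkn1a was not. None was higher at that step, where 2.32% of all genes were. In R1000 all 3 Cip/Kip genes were lower than in R500, as were 9.96% of all genes, and 0.405% of all genes were higher. Cdkn1a (1600 bp in R500, 800 bp in R1000) and Cdkn1b (200 and 100 bp) stood exactly at the limit. Per Mb of the list both were greater in R1000, at 496 against 353 for Cdkn1a and 62.0 against 44.1 for Cdkn1b. Cdkn1c had 0 bp in R1000. In R4000 none was lower or higher than in R1000, where 3.36% of all genes were lower and 1.36% higher. The covered length of Cdkn1a was 800 bp before that step and 1100 bp after it, while the list as a whole covered 1.61 and 1.07 Mb.

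The INK4 genes had no covered base in any of the 5 lists, which was also the case for 68.4% of all annotated genes. That share includes noncoding genes and pseudogenes, whereas the INK4 genes are protein-coding. The share among protein-coding genes alone was not computed. Cdkn2a (ENSMUSG00000044303.5) lies on chromosome 4 from 88920377 to 88940557 and Cdkn2b (ENSMUSG00000073802.4) next to it from 88952198 to 88956941, both on the minus strand. The nearest peak to the Cdkn2a window was 225.4 kb away for the parental line, 137.0 kb for R100, 146.8 kb for R500, 145.7 kb for R1000 and 245.4 kb for R4000. For Cdkn2b these distances were 209.1, 168.8, 178.6, 177.5 and 229.1 kb. A broad stretch around both genes was therefore without peaks in every line, also in R100 with its many peaks. Since the cells are Cdkn2a-/-, missing DNA and missing H3K27me3 at Cdkn2a cannot be told apart from a peak list, and the extent of the deletion is not given in the sources used here. The label cannot be checked with these lists either, since genes with intact DNA are also without peaks.

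Cdkn2c (ENSMUSG00000028551.8), on chromosome 4 from 109333481 to 109339794 on the minus strand, had its nearest peak 50.9 kb away in the parental line and 3.6 kb away in R100, a 50-bp peak in the long noncoding RNA gene 9630013D21Rik. In the other lines the nearest peak was 50.4 kb (R500), 70.8 kb (R1000) and 145.7 kb (R4000) away. Cdkn2d (ENSMUSG00000066860.6), on chromosome 9 from 21092907 to 21095653 on the minus strand, had peaks 23.1 to 43.5 kb away. Within 50 kb of its start the covered length was 1000 bp for the parental line, 1650 bp for R100, 1800 bp for R500, 350 bp for R1000 and 450 bp for R4000. Nearly all of these bases belonged to S1pr5, a receptor for sphingosine 1-phosphate, with 1000, 1600, 1750, 350 and 400 bp. The genes whose windows overlap that of Cdkn2d, Kri1 and Ap1m2, had 0 bp in every line, as did Faf1 beside Cdkn2c and Gm12606 beside Cdkn2a.

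**Figure D4:**
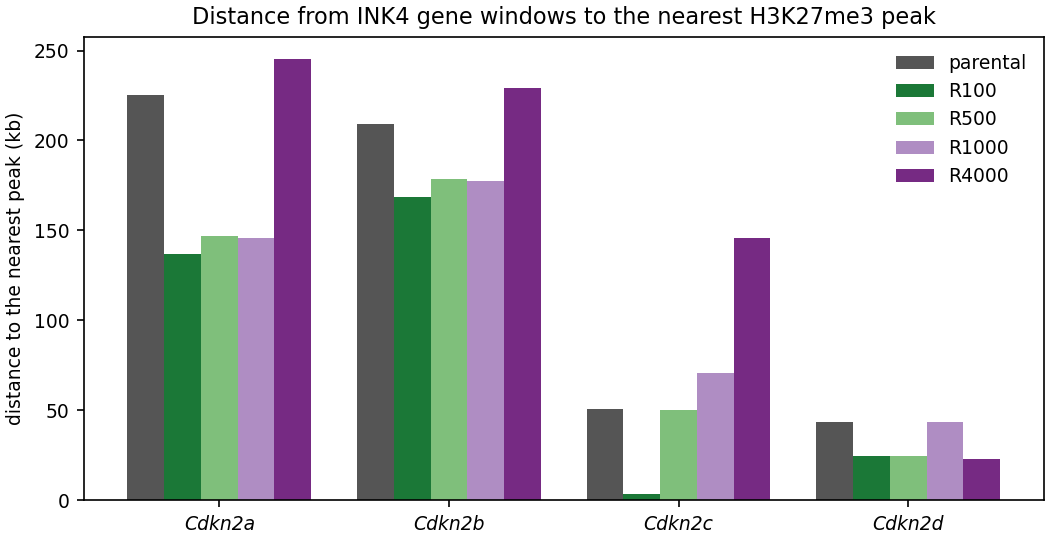
Distance in kb from the window of each INK4 gene to the nearest H3K27me3 peak on the same chromosome, 1 bar per line. Cdkn2a and Cdkn2b stand over 100 kb from any peak in every line, while Cdkn2d stands within 43.5 kb and Cdkn2c ranges from 3.6 to 145.7 kb.

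CpG content at the starts was compared between both families. Within 1 kb on both sides, the ratio of observed to expected CpG was 0.87 at the start of Cdkn2a-201 and 0.52 at that of Cdkn2a-001, which begins 12461 bp downstream of the 5′ end of the gene. It was 0.67 at Cdkn2b, 0.72 at Cdkn2c-001 and 0.61 at Cdkn2d, against 0.76 at Cdkn1b and 0.78 at Cdkn1c. The ranges of both families overlapped, and all of these ratios were above the protein-coding median of 0.47, although Cdkn2a-001, with 57 CpG dinucleotides, was below the median number of 60. The ratio at the start did not separate the genes with peaks from those without.

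Other genes of the same pathway were taken from a list of 38, namely the kinases and cyclins that the inhibitors bind, Rb and E2f proteins downstream, and regulators of the inhibitors. The number of them covered was 5 for the parental line, 16 for R100, 12 for R500, 4 for R1000 and 6 for R4000. Higher than in the parental line were 13 for R100, 10 for R500, 0 for R1000 and 2 for R4000. The 2 genes of R4000 were 5.26% of the list, against 2.06% of all genes, and in R1000 2.90% of all genes were higher. The higher genes were 34.2% of the list in R100, against 13.9% of all genes, and 26.3% in R500, against 10.6%. The listed genes are protein-coding, and all genes include noncoding genes and pseudogenes. Protein-coding genes were covered more often than all genes, 21.7% against 15.8% in R100 and 17.0% against 12.7% in R500. The share of protein-coding genes called higher was not computed, so the comparison is not like for like. The 1 listed gene lower in R1000 and in R4000 was Cdk6, and 0 were lower in R100 and R500. Of the listed genes, 4 were covered in every line, 10.5% of the list against 3.37% of all genes. These 4 were Bmi1, a polycomb protein, Ccnd2 and Cdk4, partners that the INK4 proteins act on, and Myc.
Myc, the gene whose transgene these cells carry, had 1800 bp for the parental line, 4150 bp for R100, 4500 bp for R500, 2200 bp for R1000 and 1850 bp for R4000. Reads from the transgene and from the endogenous gene cannot be told apart in a peak list. The cyclin D1 gene Ccnd1 had 0, 600, 600, 0 and 100 bp in the same order of lines, and Ccna2, the gene of cyclin A2, had 0, 650, 200, 0 and 0 bp. E2f7, a repressor of cell cycle genes, had 0, 800, 1150, 50 and 0 bp, and Cbx7, a polycomb protein known for repressing the Cdkn2a locus, had 50, 200, 450, 0 and 0 bp. As at Cdkn1b and Cdkn1c, the coverage of these genes lay mainly in R100 and R500.
E2f2, an activator of S-phase genes, had 0, 400, 400, 100 and 150 bp, and Ccnb1, the gene of cyclin B1, had 0, 150, 250, 100 and 200 bp. Like Cdkn1a, both were higher in R4000 than in the parental line, E2f2 with exactly the minimum of 150 bp. Cdk6, a kinase that the INK4 proteins bind, had 250, 650, 850, 0 and 50 bp over a window of 184326 bp. It was higher in R100 and R500 and lower in R1000 and R4000. After division by the total of each list only the lower calls of Cdk6 remained.

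**Figure D5:**
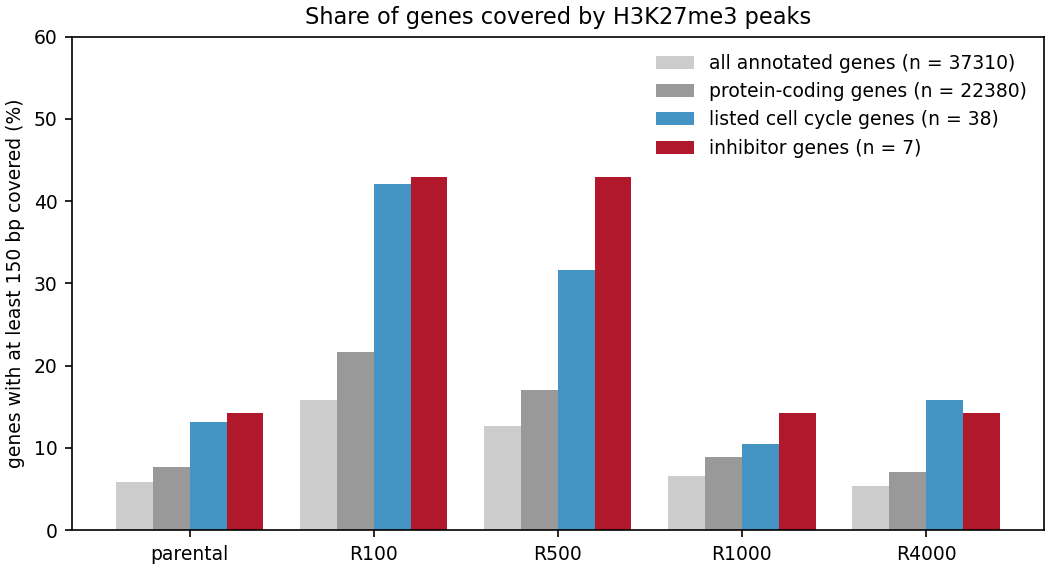
Share of genes in percent with at least 150 bp under H3K27me3 peaks in each line, for all annotated genes, protein-coding genes, the 38 listed cell cycle genes and the 7 inhibitor genes. R100 and R500 have the highest bars in every set, and 1 inhibitor gene is 14.3% of its set.

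The genes nearest to Cdkn1a in covered length over the 5 lines, by Euclidean distance among protein-coding genes, were Epha2, an ephrin receptor, at 166 bp, Tbc1d9 at 224 bp and Prr7 at 299 bp. Epha2 had 450 bp for the parental line, 1500 bp for R100, 1750 bp for R500, 750 bp for R1000 and 1100 bp for R4000. For Cdkn1c the nearest were 2510039O18Rik and Hes3, a transcriptional repressor, at 50 bp each, and 6430571L13Rik at 70.7 bp. Hes3 had 600 bp for R100 and 200 bp for R500, with 0 bp elsewhere. The genes nearest to Cdkn1c were thus within 1 or 2 bins of it.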

How the data were processed

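H3K27me3 ChIP-seq was analysed in 5 lines. RRBS samples were not analysed here. Per the labels, Bowtie and mm9 were used, with no version given. The authors called peaks in windows tiling the genome from immunoprecipitated and input libraries with Poisson statistics. The deposited lists hold 3 columns, chromosome, start and end in bp. The study's methods give a p-value limit over at least 3 bins for calling promoters enriched; which limit made the deposited lists, and whether replicates were pooled in them, is not given in the sources used here. Every peak of R100 and R500, entered 2 times, was counted once. Peaks on all 21 chromosomes lay within NCBIM37 (mm9).

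Covered length was summed per gene of the GENCODE annotation with Python 3.11.15, numpy 2.4.6 and pandas 2.3.3, and figures were drawn with matplotlib 3.10.9. The step was tested on simulated data, where 0 of 1200 windows differed from a count base by base. Sequences are from NCBIM37. The members and gene lists were chosen with earlier results of these data known. Named were the members, listed genes called in at least 2 resistant lines (at most 8), genes with overlapping windows and the 3 genes most like each of the 2 members with most coverage. S1pr5, Phlda2, and Bmi1, Ccnd2 and Cdk4 were named after their values were seen. Alternatives were other windows, peak sets, minimums, folds and a scaling by list size. No test was made, since each line has 1 list. Of the B-cell markers set, 1 is not reported here.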

Additional observations from a re-analysis of the deposited data

Results flagged for a closer look

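Cdk6, the kinase that the INK4 proteins bind, was called in opposite directions in different resistant lines. It had 250 bp under H3K27me3 peaks for the parental line, 650 bp for R100, 850 bp for R500, 0 bp for R1000 and 50 bp for R4000. The lower calls of R1000 and R4000 were lost within 2 kb of the 5′ end or of any transcript start, from the 5′ end to the gene end and with a minimum of 300 bp. Divided by the total of each list, the higher calls of R100 and R500 were lost and the lower calls stayed. The opposite directions thus held only before this scaling. The difference between the lines was not tested, since each had 1 list.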

How the results depend on the processing

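No paired analysis was possible because each line had 1 peak list and no test was made. Depth and peak threshold limit every count and are unknown, so that a gene without a peak was not detectably marked in that list rather than free of the mark. The 4 INK4 genes had 0 bp in every line under each alternative window and peak set. Except where peaks within 1000 bp were joined, this was fixed in advance, since those windows and peaks were part of the reported ones. Under the other windows, peak sets, minimums and folds the share of all genes was not computed. Whether the counts below differ from that share is therefore unknown.
In the 5 kb upstream of the 5′ end alone, 0 inhibitor genes were covered in the parental line, R500, R1000 and R4000 and 1 in R100, with 1 higher in R100, 0 in R500 and 0 in R4000. There, 3 listed cell cycle genes were covered for the parental line, 7 for R100, 7 for R500 and 3 in R4000, and 5, 6, 1 and 1 were higher in R100, R500, R1000 and R4000. Within 2 kb of the 5′ end, 0 inhibitor genes were covered in the parental line, R1000 and R4000 and 1 in R500, with 1 higher in R500 and 0 in R4000. The Cdkn1a peaks lie beside Cdkn1a-001, whose start is 2793 bp from that end, and Cdkn1c had 100 bp there in R500, so that Cdkn1b was the gene left. Within 2 kb of any transcript start, an alternative chosen after seeing the data, Cdkn1a had the reported 500, 1500, 1600, 800 and 1100 bp. In both 2-kb windows 3 listed genes were covered in the parental line and 0 were lower in R1000 and R4000. From the 5′ end to the gene end, 3 listed genes were covered in the parental line and 10 in R100, with 7 higher in R100 and 0 lower in R1000 and R4000.
With only the 6820 widest peaks kept per list, 1 inhibitor gene was covered and higher in R100, and 9 listed genes were covered and 5 higher there. That limit fell among R100 peaks of 200 bp, and genome order decided which of these were kept, the Cdkn1b peak among those dropped. With a minimum of 300 bp, 1 inhibitor gene was covered and higher in R500, 9 listed genes were covered in R100 and 3 in R4000, 6 were higher in R100, 0 higher in R4000, and 0 lower in R1000 and R4000. With 50 bp, 2 inhibitor genes were covered in the parental line and 2 in R1000, with Cdkn1b the 1 higher in R1000 and Cdkn1c the 1 lower in R1000 and in R4000. Then 19 listed genes were covered in R500 and 12 in R1000, 17 were higher in R500, 8 in R1000 and 4 in R4000, and 1, 1, 3 and 3 were lower in R100, R500, R1000 and R4000.
With a fold of 1.5, Cdkn1a was the 1 inhibitor gene higher in R1000, and 2 listed genes were lower in R4000. With a fold of 3, 0 inhibitor genes were higher in R4000. Divided by the total of each list, 1 inhibitor gene (Cdkn1b) was higher in R500, and 1 listed gene was lower in R100 (Ccnd2) and 1 in R500 (Bmi1). Cdkn1b, with 0 bp in the parental line, could not lose its call by this scaling. Among protein-coding genes alone, 7.67% were covered for the parental line, 21.7% for R100, 17.0% for R500, 8.86% for R1000 and 7.05% for R4000. The remaining 217 counts stayed within 1.5 times the reported count, with 0 against 0 taken as the same. A count within that limit can hide a lost call. With peaks of at least 100 bp, 2 inhibitor genes were higher in R500 in place of 3, without Cdkn1c.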
